A study of Mus musculus with 10 samples.

Results

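The genes described here are the Hox genes and members of other families of developmental patterning factors, measured by RNA sequencing in mouse somatosensory cortex. They were chosen by name, with no filter on level, and with earlier results of these data known. A member is a gene whose symbol begins with Hoxa to Hoxd, Pax, Irx, Nkx, Tbx, Gata, Msx, Barx, Vax, Alx, Twist, Hand, Meox, Pitx or Foxa to Foxf and a digit, or with the prefix shared by Six2 and Six5. Vax2, Barx1, Twist1, Pax2 and Tbx1 were left out by name, and their values are given further on because they bear on how the counts read. The rule gave 129 members of the 56398 gene names in the deposited tables. Each of the 2 tables held 127 of them, and 125 were in both. Foxc1 joined with Foxf2 and Tbx15 joined with Wars2 stood only in the 2.5-month table, Tbx15 and Tbx3os1 only in the 3-month table, and 5 members were noncoding transcripts with names such as Pax6os1.

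The study deleted Nsd1, which encodes a histone methyltransferase that acts on lysine 36 of histone H3, in mouse cortex. The Nex model comprised 3 Nsd1Nex-cKO libraries (Nex_cKO) and 3 control libraries (Nex_Ctrl) at 2.5 months, and the Camk2a model comprised 2 Nsd1Camk2a-cKO libraries (Camk2a_cKO) and 2 control libraries (Camk2a_Ctrl) at 3 months. By genotype, Nex_Ctrl replicates 1 and 2 and both Camk2a_Ctrl libraries were Nsd1fl/+ and Nex_Ctrl replicate 3 was Nsd1fl/fl, so every control carried at least 1 floxed allele. Nex names a Cre that acts in excitatory neurons soon after their birth, and Camk2a a Cre that acts in excitatory neurons after their maturation, so other cortical cells keep Nsd1 in both models. Whether the controls carried Cre and whether each library came from its own mouse is not given in the sources used here, and p-values therefore measure only the spread between these libraries.

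Patterning factors are transcription factors that divide the embryo into regions and germ layers. Hox genes lie in clusters and are used in the hindbrain, spinal cord and trunk, whereas the cortex forms in front of their domain and keeps them closed under Polycomb repression. Factors such as Nkx2-5, Tbx5, Gata and Fox genes are best known from heart, limb, blood and mesenchyme, and a few, among them Pax6 and Nkx6-2, are used by neural progenitors or glia.

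Values are FPKM (fragments per kilobase of transcript, scaled to the mapped fragments of the library), which can be set side by side between genes because they are scaled to length. The read depth of the Nex libraries is unknown, and the Camk2a libraries held 16901717 and 16943855 reads in Camk2a_cKO and 17521841 and 20074933 reads in Camk2a_Ctrl, recovered from the deposited gene lengths. Nex_cKO replicate 3 stood apart. Rows without a gene name held 41.6% of its summed FPKM against 2.33% to 19.4% in the other Nex libraries, and it had Ddx3y at 16.2 FPKM and Xist at 0.00350 FPKM, where the other 5 had Ddx3y at 0 and Xist at 33.6 to 46.5 FPKM. The Camk2a libraries had Ddx3y at 11.1 and 11.7 FPKM in Camk2a_cKO and 12.4 and 10.98 FPKM in Camk2a_Ctrl, with Xist under 0.01 FPKM in all 4. The targeted gene could be read alone only in the Camk2a model, with Nsd1 at 4.31 and 4.99 FPKM in Camk2a_cKO against 5.61 and 8.87 FPKM in Camk2a_Ctrl (difference of log2(FPKM + 1) -0.52, limma adjusted p = 0.87). In the Nex table it was joined with its neighbour Prelid1, at 91.0, 118 and 106 FPKM in Nex_cKO against 130, 125 and 141 FPKM in Nex_Ctrl (difference -0.34, limma adjusted p = 0.117). In bulk tissue, fewer cells of a type and less RNA per cell cannot be told apart.

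Most members were silent in both models, and no family as counted here was switched on as a whole. The factors left out by name are not in these families, which leaves Barx, Vax and Twist with 1 member each. A member was called silent in a model when its mean was under 0.1 FPKM in both cKO and control. In the Nex model 87 of 127 members (68.5%) were silent, against a background of 33% over all gene names. In the Camk2a model 97 of 127 (76.4%) were, against a background of 61.6%, and 86 members were silent in both models. Another 7 members had a mean of 0.1 FPKM or more in Nex_cKO and under it in Nex_Ctrl, namely Pax1, Nkx2-5, Hoxc6, Tbx5, Tbx22, Hoxc4 and Foxa1. Conversely, 6 members had a mean under 0.1 FPKM in Nex_cKO and of 0.1 FPKM or more in Nex_Ctrl, namely Irx1, Msx2, Irx3, Foxd2, Nkx2-1 and Meox1. The remaining 27 were present in both groups. The share of members at or over 0.1 FPKM in Nex_cKO among those under it in Nex_Ctrl was 7 of 94 (7.45%), against a background of 7.81% over all gene names. Crossing this bound upward was thus about as frequent among the members counted here as among other genes near 0. This share leaves out Barx1 (3.05 to 3.80 FPKM in Nex_cKO, 0 in Nex_Ctrl) and Vax2 (3.45 to 4.57 against 0 to 0.0487 FPKM), which also crossed it upward. Pax2, also left out by name, did so too (1.49 to 2.15 FPKM in Nex_cKO against 0.0418 to 0.0807 FPKM in Nex_Ctrl). Twist1 and Tbx1 were over the bound in both groups. The share under 0.1 FPKM in Nex_cKO among those at or over it in Nex_Ctrl was 6 of 33 (18.2%), against a background of 1.69%. Few patterning factors were abundant, and all 6 of these had control means from 0.103 to 0.233 FPKM. Among gene names with a Nex_Ctrl mean of 0.1 to 0.3 FPKM, a range set after the values were seen, 6 of 11 members (54.5%) went under 0.1 FPKM against a background of 20.3%.

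**Figure D1:**
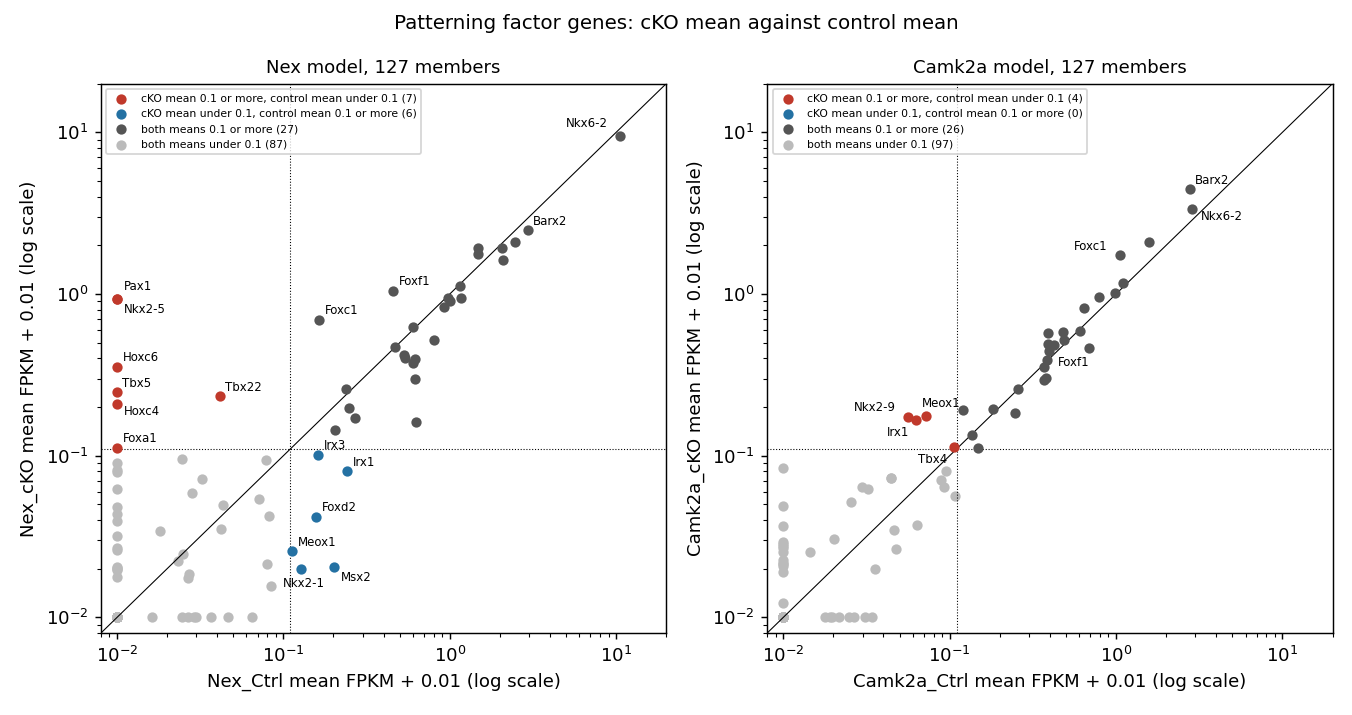
Mean FPKM in cKO (vertical axis) against mean FPKM in control (horizontal axis) for each member in the Nex and Camk2a models, on log axes after adding 0.01, with dotted lines at 0.1 FPKM and a diagonal of equal levels. In the Nex model 7 members lie above the bound in cKO only and 6 in control only, against 4 and 0 in the Camk2a model.

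The Hox clusters stayed almost wholly silent. Of the 39 Hox genes, 25 were listed at 0 in all 6 Nex libraries and 32 had 0 reads in all 4 Camk2a libraries. The Hoxb cluster was the most uniform, with Hoxb4 in 1 Nex_cKO library at 0.0656 FPKM as its only value above 0 in either model. In the Hoxa cluster 9 of 11 genes were listed at 0 in every Nex library, and Hoxa7 was at 0.0321, 0.0342 and 0.141 FPKM in Nex_cKO against 0 in each Nex_Ctrl library (limma adjusted p = 0.316). Hoxa7 thus separated the groups at levels near 0 but did not pass the test. In the Hoxd cluster, Hoxd1 was at 0, 0 and 0.0343 FPKM in Nex_cKO against 0.0721, 0.102 and 0.0346 FPKM in Nex_Ctrl (limma adjusted p = 0.305), the opposite order. For Hoxb8, 3 reads would have corresponded to 0.0640 and 0.0677 FPKM in Camk2a_cKO and 0.0662 and 0.0576 FPKM in Camk2a_Ctrl. Levels below those could thus have given 0 reads at this depth.

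Hoxc4, in the Hoxc cluster, was the 1 Hox gene that rose. Hoxc4, which acts in the neck and upper trunk (ENSMUSG00000075394, chromosome 15, 103018934 to 103036852, GRCm38), was at 0.153, 0.223 and 0.218 FPKM in Nex_cKO and listed at 0 in the 3 Nex_Ctrl libraries. All 3 Nex_cKO libraries were above all controls, and the difference of log2(FPKM + 1) was 0.26 (SE 0.04, limma adjusted p = 0.0105). Hoxc6, which marks thoracic levels, was at 0.113, 0.438 and 0.484 FPKM in Nex_cKO and at 0 in each Nex_Ctrl library, with a wider spread (difference 0.42, SE 0.11, limma adjusted p = 0.0662). It did not pass the test with all libraries and did without Nex_cKO replicate 1 (difference 0.55, limma adjusted p = 0.00297) or with a pseudocount of 0.1 (adjusted p = 0.0196). Hoxc5, between them, was at 0.0837, 0.0434 and 0.130 FPKM in Nex_cKO and at 0.0441, 0 and 0 FPKM in Nex_Ctrl (limma adjusted p = 0.262), and Hoxc9, Hoxc11 and Hoxc12 were listed at 0 throughout. The annotated span of Hoxc5 (102967443 to 103017429) contains that of Hoxc6 on the same strand, so how reads divide between these genes is uncertain. In the Camk2a model Hoxc4 had 1 read in 1 Camk2a_cKO library (0.0219 FPKM) and none in the other or in Camk2a_Ctrl.

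**Figure D2:**
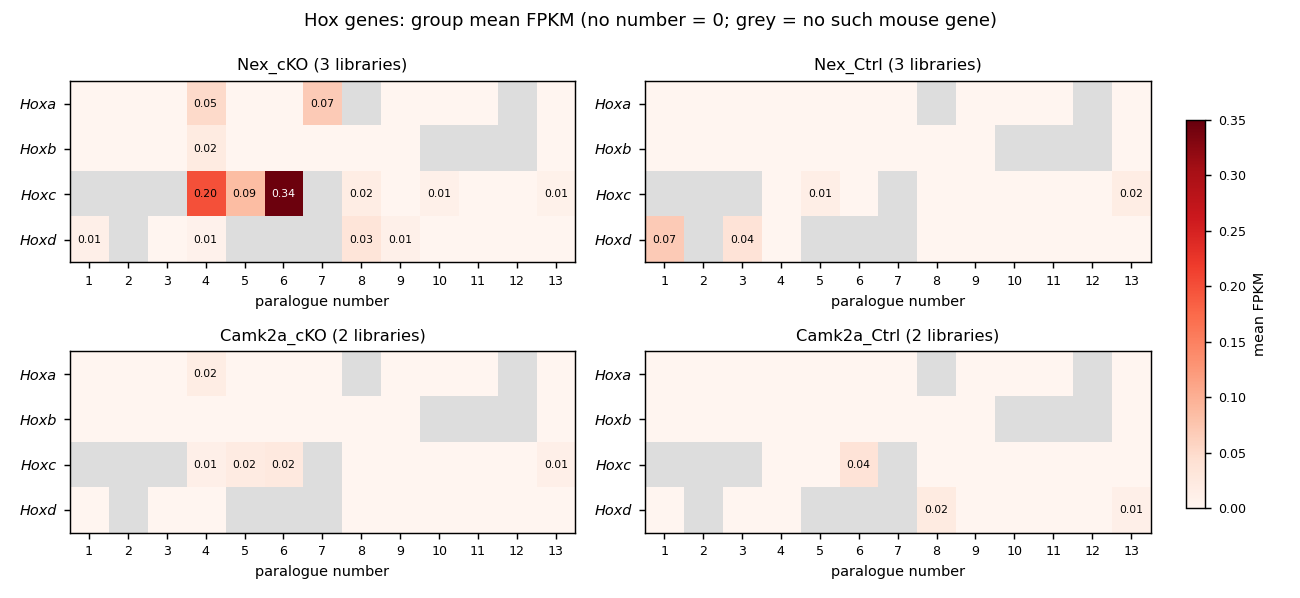
Group mean FPKM of the 39 Hox genes by cluster (rows) and paralogue number (columns) in Nex_cKO, Nex_Ctrl, Camk2a_cKO and Camk2a_Ctrl, on one colour scale; squares without a number are at 0. Hoxc4 and Hoxc6 in Nex_cKO, at 0.20 and 0.34 FPKM, are the only squares at or over 0.1.

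Summed over the 39 Hox genes, the level was 0.657, 0.904 and 1.05 FPKM in Nex_cKO libraries against 0.225, 0.102 and 0.0863 FPKM in Nex_Ctrl libraries. In Camk2a_cKO it was 0.0799 and 0.0879 FPKM, against 0.138 and 0 FPKM in Camk2a_Ctrl. The number of Hox genes above 0 was 9, 9 and 6 in Nex_cKO and 3, 1 and 2 in Nex_Ctrl. All gene names above 0 also numbered more in Nex_cKO (16285 to 16427) than in Nex_Ctrl (16005 to 16090), and the part of this in the Hox counts was not tested.

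Promoters of 3 members that rose and of 2 Hox genes that stayed at 0 in all 10 libraries are shown to compare their base composition, up to 250 bases before the RefSeq start (GRCm38.p6), cut where an annotated exon begins, with each CG in capitals. The Pax1 window is chr2:147364744-147364993 (plus strand), inside the Pax1 span of the 3-month table. Those of Nkx2-5 and Foxc1 are chr17:26841609-26841815 (minus strand) and chr13:31806396-31806632 (plus strand). Those of Hoxa5 and Hoxb8 are chr6:52204588-52204837 (minus strand) and chr11:96281655-96281904 (plus strand).
Pax1: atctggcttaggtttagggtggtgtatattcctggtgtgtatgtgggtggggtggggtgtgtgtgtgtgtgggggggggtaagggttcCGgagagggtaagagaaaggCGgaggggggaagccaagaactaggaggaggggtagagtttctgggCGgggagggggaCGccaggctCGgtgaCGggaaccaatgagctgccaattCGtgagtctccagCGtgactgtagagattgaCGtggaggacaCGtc
Nkx2-5: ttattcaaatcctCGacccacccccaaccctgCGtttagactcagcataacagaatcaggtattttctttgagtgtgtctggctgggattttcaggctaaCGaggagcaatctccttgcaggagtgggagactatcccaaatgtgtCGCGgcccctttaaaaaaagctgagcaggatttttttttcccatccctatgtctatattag
Foxc1: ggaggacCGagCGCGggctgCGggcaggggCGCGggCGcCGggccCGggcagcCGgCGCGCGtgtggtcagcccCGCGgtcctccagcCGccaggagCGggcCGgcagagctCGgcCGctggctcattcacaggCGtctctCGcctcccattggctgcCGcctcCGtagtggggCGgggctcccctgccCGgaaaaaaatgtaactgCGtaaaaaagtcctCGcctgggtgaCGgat
Hoxa5: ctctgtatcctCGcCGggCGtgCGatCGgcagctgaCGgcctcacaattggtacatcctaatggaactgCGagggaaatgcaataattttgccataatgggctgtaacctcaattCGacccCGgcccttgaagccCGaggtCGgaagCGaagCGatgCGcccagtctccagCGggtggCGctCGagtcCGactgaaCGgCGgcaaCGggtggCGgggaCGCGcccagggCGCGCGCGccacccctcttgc
Hoxb8: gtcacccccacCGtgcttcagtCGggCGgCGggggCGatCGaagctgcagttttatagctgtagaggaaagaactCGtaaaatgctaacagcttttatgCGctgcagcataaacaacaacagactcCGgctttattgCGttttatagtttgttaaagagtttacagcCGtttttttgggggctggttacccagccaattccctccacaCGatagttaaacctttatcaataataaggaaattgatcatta
CG dinucleotides, which mark CpG islands where dense, numbered 13, 9, 32, 29 and 13 in the full 300-base windows of these genes in that order, 250 bases before to 50 after the start. RefSeq promoters were found for 83 of 129 members (92 windows). Their median was 17 CG, against 7 over all 32851 promoters, so members as a whole had CG-rich starts. The silent members of the Nex model had a median of 18.5 CG (range 4 to 45, 60 windows). The members crossing 0.1 FPKM only in Nex_cKO had a median of 9 CG (range 1 to 26, 7 windows, 5 genes). These ranges overlapped, and the difference was not tested. TATAAA on either strand occurred in 10.9% of member windows and 13.6% of all windows, and it cannot overlap a CG.

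In the Nex model 6 members rose, and each lay on a different chromosome. Of the 127 members, 78 were above 0 in at least 1 library and could be tested, and the other 49 were listed at 0 in all 6 libraries. Those that rose were Nkx2-5, Pax1, Foxc1, Foxf1, Tbx5 and Hoxc4, 7.69% of those tested, against a background of 4.28% of all 17667 rows called higher. None fell, against a background of 2.46% called lower. At an unadjusted p under 0.05, 10 members were higher (12.8%, background 9.64%) and 6 lower (7.69%, background 11.5%). The median difference of log2(FPKM + 1) was -0.01 over members and -0.01 over all rows. A positive sign was seen in 35 members (44.9%, background 45.6%) and a negative sign in 43 (55.1%, background 54.4%). Groups did not overlap in 12 members higher (15.4%, background 12.2%) and 9 members lower (11.5%, background 15%).

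Nkx2-5, the homeodomain factor of heart progenitors (ENSMUSG00000015579, chromosome 17, 26838664 to 26841565), was at 1.13, 0.951 and 0.684 FPKM in Nex_cKO and was listed at 0 in each Nex_Ctrl library. Every Nex_cKO library stood clear of the controls, and the difference of log2(FPKM + 1) was 0.94 (SE 0.09, limma adjusted p = 0.00123). Pax1, a paired-box factor of the sclerotome and pharyngeal pouches (ENSMUSG00000037034, chromosome 2, 147361925 to 147393295), was at 0.520, 0.829 and 1.42 FPKM in Nex_cKO and at 0 in each Nex_Ctrl library. Its values in Nex_cKO varied more than those of Nkx2-5, with a difference of 0.92 (SE 0.15, limma adjusted p = 0.015). Since controls were at 0, these differences depend on the added 1 and are not fold changes. An antisense gene, AI646519, overlaps Pax1 in the 3-month gene models, and whether counting used strand is not given in the sources used here.

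Both forkhead factors that rose were already transcribed in control cortex. Foxc1, a factor of meninges and vascular mesenchyme (ENSMUSG00000050295, chromosome 13, 31806633 to 31812476), was at 0.630, 0.656 and 0.769 FPKM in Nex_cKO against 0.199, 0.101 and 0.163 FPKM in Nex_Ctrl. The libraries of each group lay close together, and the difference was 0.55 (SE 0.06, limma adjusted p = 0.00258). The Nex table also held a locus that joined Foxc1 with its neighbour Foxf2, at 1.95, 2.23 and 1.56 FPKM in Nex_cKO against 2.59, 2.06 and 1.52 FPKM in Nex_Ctrl (difference -0.06, limma adjusted p = 0.863). How reads of Foxc1 divide between its own row and the joined one is uncertain. Foxf1, a factor of lung and gut mesenchyme (ENSMUSG00000042812, chromosome 8, 121084386 to 121088144), was at 1.14, 0.773 and 1.21 FPKM in Nex_cKO against 0.446, 0.419 and 0.475 FPKM in Nex_Ctrl (difference 0.49, SE 0.10, limma adjusted p = 0.0283). The call of Foxf1 was lost without Nex_cKO replicate 3, the library that stood apart (limma adjusted p = 0.0583), and without each other library except Nex_cKO replicate 2 (adjusted p = 0.0957 to 0.11). A longer gene model, Gm20388, spans Foxf1 on its strand.

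Tbx5, the T-box factor of heart and forelimb (ENSMUSG00000018263, chromosome 5, 119832668 to 119885219), was at 0.155, 0.232 and 0.322 FPKM in Nex_cKO and at 0 in each Nex_Ctrl library (difference 0.30, SE 0.05, limma adjusted p = 0.0203). With 1 Nex_Ctrl library left out, whichever it was, Foxc1 and Nkx2-5 remained called, and Pax1, Tbx5 and Hoxc4 had the same differences with adjusted p of 0.0533 to 0.085. None of the 12 coding genes on either side of these 6 was called, and their limma adjusted p ran from 0.101 (Smug1, beside Hoxc4) to 0.91.

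**Figure D3:**
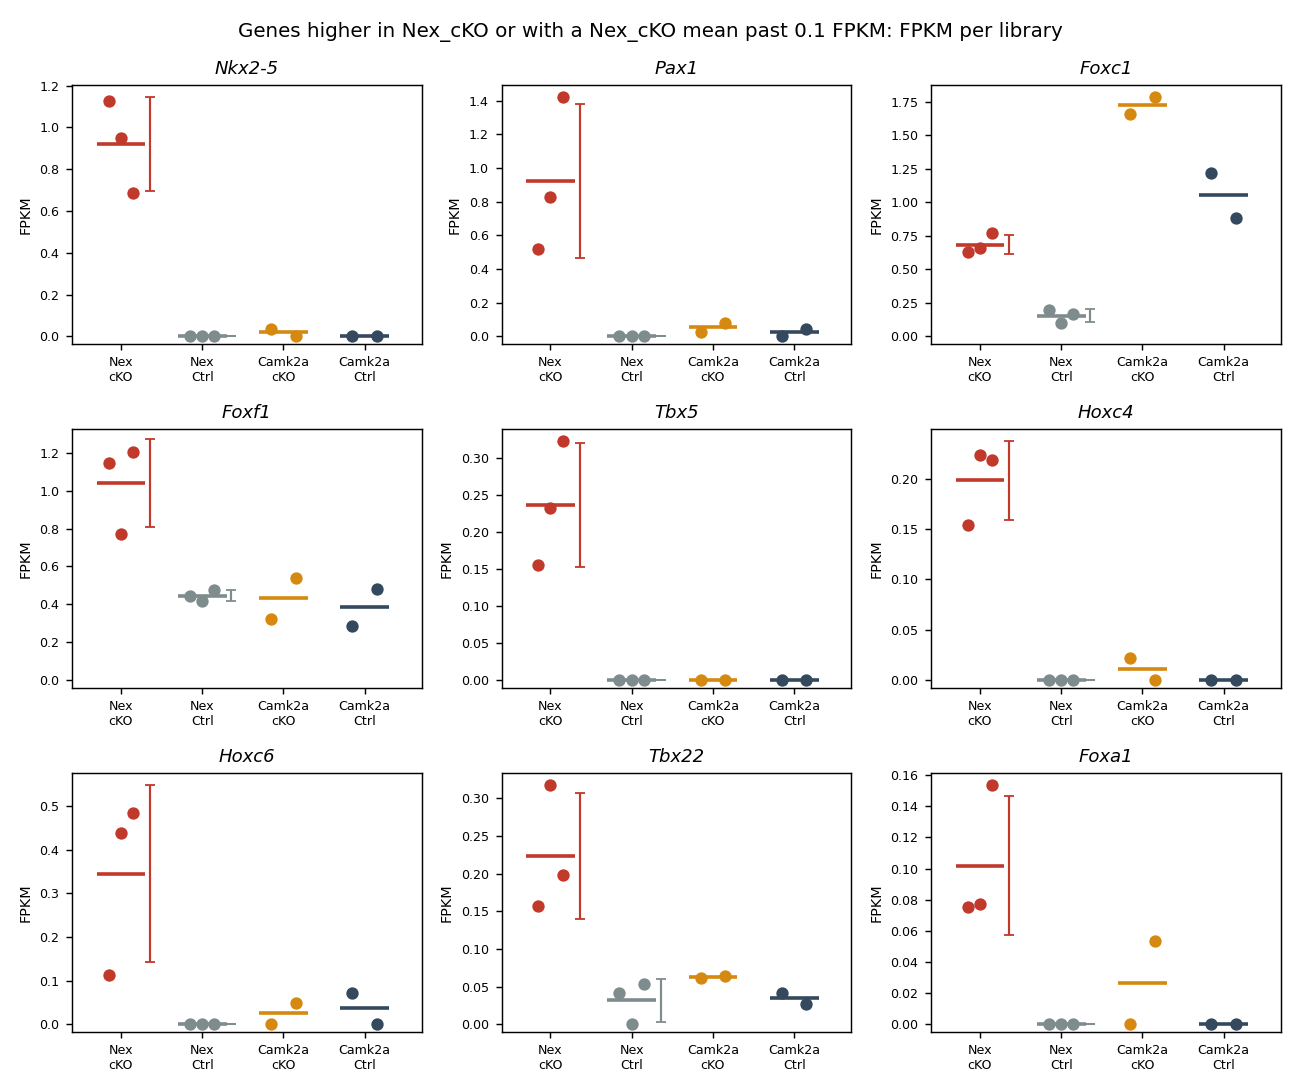
FPKM in each library (points) for 9 members in Nex_cKO, Nex_Ctrl, Camk2a_cKO and Camk2a_Ctrl, with the mean (line) and, in the Nex groups, the SD over 3 libraries (bar). Nkx2-5, Pax1, Tbx5, Hoxc4, Hoxc6 and Foxa1 are above 0 in every Nex_cKO library and at 0 in every Nex_Ctrl library; in the Camk2a model all but Foxc1 and Foxf1 stay under 0.1 FPKM.

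Of the members that crossed 0.1 FPKM upward, 3 did not pass the test: Hoxc6, already described, Tbx22 and Foxa1. Tbx22, a T-box factor of the palate, was at 0.156, 0.317 and 0.198 FPKM in Nex_cKO against 0.0414, 0 and 0.0535 FPKM in Nex_Ctrl (limma adjusted p = 0.0529). Foxa1, a factor of endoderm and of midbrain dopamine neurons, was at 0.0750, 0.0771 and 0.154 FPKM in Nex_cKO and at 0 in each Nex_Ctrl library (limma adjusted p = 0.102). In both the groups did not overlap, and both passed with a pseudocount of 0.1 (limma adjusted p = 0.0347 and 0.0452).

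None of the 6 members that crossed the bound downward passed the test. Irx1, an Iroquois homeodomain factor, was at 0.117, 0.0314 and 0.0617 FPKM in Nex_cKO against 0.274, 0.193 and 0.232 FPKM in Nex_Ctrl (difference -0.20, SE 0.05, limma adjusted p = 0.0554; 0.0214 with quantile normalization). Msx2, a homeodomain factor induced by BMP signals, was at 0, 0 and 0.0318 FPKM in Nex_cKO against 0.321, 0.113 and 0.142 FPKM in Nex_Ctrl (difference -0.23, SE 0.07, limma adjusted p = 0.0993; 0.0396 with a pseudocount of 0.1). Foxd2 was at 0.0470, 0.0249 and 0.0241 FPKM in Nex_cKO against 0.215, 0.151 and 0.0766 FPKM in Nex_Ctrl (limma adjusted p = 0.147). These 3 genes separated the groups in every library. Irx3 (adjusted p = 0.65), Nkx2-1, the ventral forebrain factor that specifies cortical interneurons (adjusted p = 0.301), and Meox1, a somite factor (adjusted p = 0.367), had groups that overlapped. Six2, a factor of kidney progenitors and head mesenchyme, had the smallest p among the lower members, at 0.0944, 0.232 and 0.130 FPKM in Nex_cKO against 0.781, 0.733 and 0.342 FPKM in Nex_Ctrl (difference -0.48, SE 0.11, limma adjusted p = 0.0537); it was chosen after its values were seen, and it was called without Nex_Ctrl replicate 3, with a pseudocount of 0.1 and with quantile normalization.

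**Figure D4:**
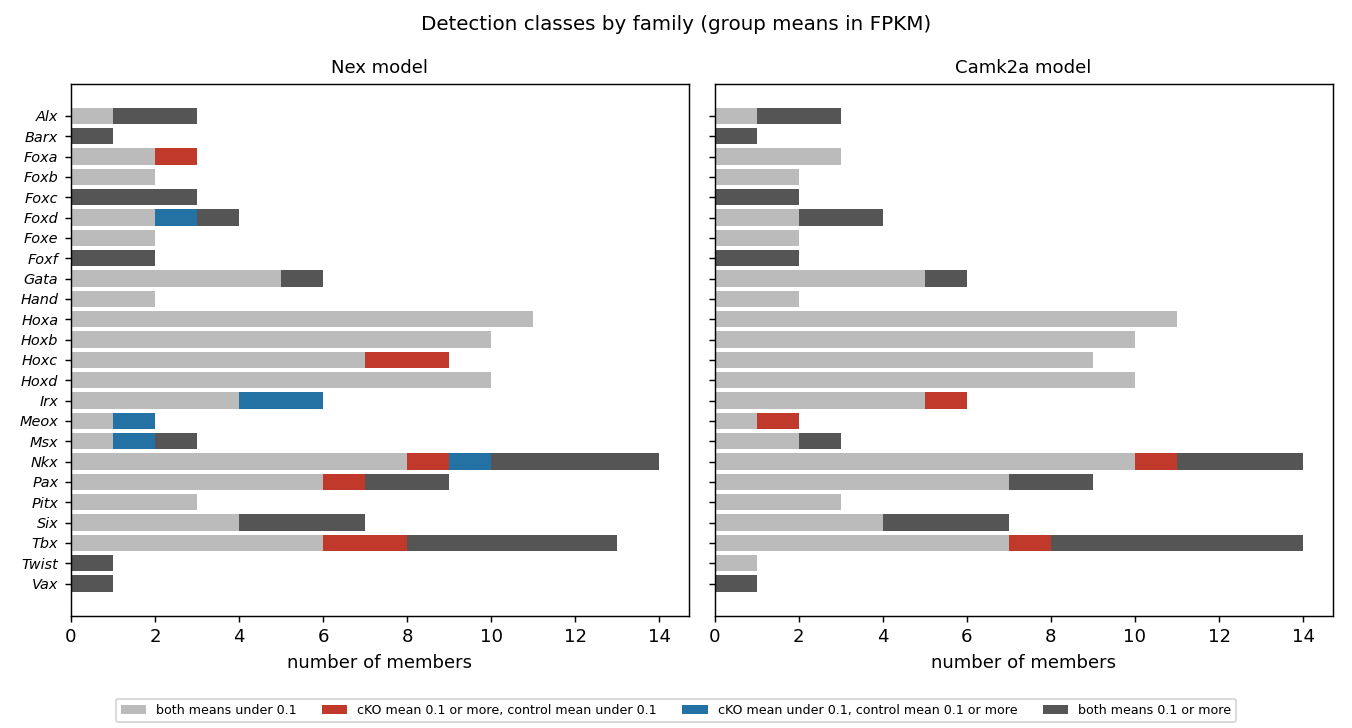
Number of members per family in each detection class (colours) in the Nex and Camk2a models, by group means at a bound of 0.1 FPKM. All Hoxa, Hoxb and Hoxd members are silent in both models, and in the Nex model Nkx is the family with members in all 4 classes.

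A small set of patterning factors was transcribed at higher levels in the cortex of both groups. Only 7 members had at least 1 FPKM in every Nex library, and 3 had it in every Camk2a library. The 7 include the locus joining Foxc1 with Foxf2 and that joining Tbx15 with Wars2, whose values cannot be credited to 1 gene. Tbx15 alone was at 0.238 to 0.434 FPKM in the Camk2a libraries. Nkx6-2, a homeodomain factor of oligodendrocytes, was the highest in the Nex model at 9.43 ± 1.34 FPKM in Nex_cKO and 10.5 ± 2.06 FPKM in Nex_Ctrl (SD, n = 3 each; limma adjusted p = 0.654). Nkx2-2, a factor of oligodendrocyte differentiation, averaged 1.61 ± 0.455 FPKM in Nex_cKO and 2.08 ± 0.0714 FPKM in Nex_Ctrl (SD, n = 3 each; adjusted p = 0.356). Foxf2, a factor of brain pericytes, averaged 2.09 ± 0.353 FPKM in Nex_cKO and 2.47 ± 0.258 FPKM in Nex_Ctrl (SD, n = 3 each; adjusted p = 0.502). Barx2, at 1.75, 2.13 and 3.56 FPKM in Nex_cKO against 2.60, 4.27 and 1.92 FPKM in Nex_Ctrl, overlapped widely (adjusted p = 0.772). Pax6, the factor of cortical progenitors that also stays on in some adult neurons and astrocytes, was at 1.94, 1.69 and 2.14 FPKM in Nex_cKO against 1.53, 1.45 and 1.44 FPKM in Nex_Ctrl. All Nex_cKO libraries were above all controls, yet the difference of 0.24 (SE 0.10) had limma adjusted p = 0.222. Reads of Pax6 and its antisense partner Pax6os1 may not be told apart, and Pax6os1 was at 0.256, 0.293 and 0.198 FPKM in Nex_cKO against 0.295, 0.172 and 0.216 FPKM in Nex_Ctrl. The joined locus of Tbx15 and Wars2, Gata2, Msx1, Foxd1, Vax1 and Six5 had Nex_cKO means of 0.822 to 1.77 FPKM and Nex_Ctrl means of 0.911 to 1.47 FPKM, with adjusted p of 0.597 to 0.973. Vax1 had a second row in the Nex table, with a lower mean over all Nex libraries, that was not used in the fit. That row was at 0.0769, 1.85 and 1.44 FPKM in Nex_cKO against 0, 0.210 and 0.418 FPKM in Nex_Ctrl. Summing both rows turned the difference of Vax1 from -0.07 to 0.43.

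In the Camk2a model no member was called in either direction, at 0 of 67 tested against a background of 0% of 27060 rows. At an unadjusted p under 0.05, 1 member was higher (1.49%, background 3.29%) and 0 lower (background 2.31%). Limma-voom on the recovered reads called 0 members, and of all genes 17 higher and 14 lower. Barx2, a homeodomain factor best known from muscle and craniofacial tissue, had the smallest p of the members, at 4.20 and 4.71 FPKM in Camk2a_cKO against 2.45 and 3.06 FPKM in Camk2a_Ctrl (147 and 156 reads in Camk2a_cKO against 83 and 119 reads in Camk2a_Ctrl; difference 0.54, SE 0.14, limma adjusted p = 0.793). Foxc1 was at 1.66 and 1.79 FPKM in Camk2a_cKO against 1.22 and 0.883 FPKM in Camk2a_Ctrl (173 and 176 reads in Camk2a_cKO against 123 and 102 reads in Camk2a_Ctrl; difference 0.41, SE 0.16, adjusted p = 0.87). Both had groups that did not overlap, as did Nkx6-2, at 3.24 and 3.43 FPKM in Camk2a_cKO against 2.80 and 2.86 FPKM in Camk2a_Ctrl (adjusted p = 0.87). In all, 11 members did not overlap upward (16.4%, background 16.2%) and 2 downward (2.99%, background 14.9%).

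At the bound of 0.1 FPKM, 4 members were over it only in Camk2a_cKO, 3.96% of the 101 under it in Camk2a_Ctrl against a background of 4.72%. They were Meox1, Nkx2-9, Irx1 and Tbx4. Irx1 was at 0.107 and 0.204 FPKM in Camk2a_cKO against 0.0666 and 0.0386 FPKM in Camk2a_Ctrl (adjusted p = 0.87), and Meox1 at 0.252 and 0.0801 FPKM in Camk2a_cKO against 0.0783 and 0.0454 FPKM in Camk2a_Ctrl (adjusted p = 0.87). Both are genes that crossed the bound the other way in the Nex model. Nkx2-9 and Tbx4 overlapped between groups, with adjusted p of 0.885 and 0.992. None of the 26 members at or over 0.1 FPKM in Camk2a_Ctrl was under it in Camk2a_cKO, against a background of 5.73%. For the 6 of them with a Camk2a_Ctrl mean of 0.1 to 0.3 FPKM the background was 27.9%.

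The members that rose in the Nex model were near 0 in the Camk2a model except Foxc1 and Foxf1. Nkx2-5 had 1 read in 1 Camk2a_cKO library and none in the other 3 libraries, where 3 reads would be 0.117 FPKM in Camk2a_cKO and 0.114 and 0.0995 FPKM in Camk2a_Ctrl. Pax1 had 2 and 6 reads in Camk2a_cKO (0.0250 and 0.0794 FPKM) against 0 and 4 reads in Camk2a_Ctrl (0 and 0.0450 FPKM). Tbx5 had 0 reads in all 4 libraries, where 3 reads would be at most 0.0382 FPKM, so levels below that could have been missed. Foxf1 was at 0.326 and 0.542 FPKM in Camk2a_cKO against 0.289 and 0.482 FPKM in Camk2a_Ctrl (adjusted p = 0.946). The difference between the models was tested over the 15308 genes above 0 in both tables, as the change in Nex minus the change in Camk2a. It was higher for 1 of 58 members, Nkx2-5 (0.91, SE 0.12, limma adjusted p = 0.00445), against a background of 1.5% higher. It was lower for 0, against a background of 0.32%. At an unadjusted p under 0.05, 6 members were higher and 4 lower, and no background was counted at that threshold. Pax1 (0.88, adjusted p = 0.0823), Hoxc4 (0.24, adjusted p = 0.0973), Foxf1 (0.44, adjusted p = 0.26) and Foxc1 (0.13, adjusted p = 0.708) did not pass. Pax1 passed without Nex_cKO replicate 1 or 3, and Hoxc6 without Nex_cKO replicate 1. Irx1 had the opposite sign (-0.34, SE 0.08, adjusted p = 0.0866). Driver, age and table differ together between the models, and so do the levels of Xist and Ddx3y that mark sex in 5 of the 6 Nex libraries against all 4 Camk2a libraries, and these cannot be told apart.

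The 5 factors left out by name all rose in Nex_cKO, by 0.92 (Tbx1) to 2.31 (Vax2) on the log2(FPKM + 1) scale. With them, 11 of 83 tested factors rose (13.3%) in place of 7.69%, so the share called depends on a choice of members made with these values known. Among 44 other tested homeodomain and basic helix-loop-helix developmental factors, 4 rose in the Nex model and 1 fell, against a background of 4.28% called higher and 2.46% called lower. Mnx1, a motor neuron factor, averaged 1.33 FPKM in Nex_cKO and was listed at 0 in Nex_Ctrl (difference 1.22, limma adjusted p = 0.000335). Pou4f1, a factor of sensory neurons, averaged 1.68 ± 0.0993 FPKM in Nex_cKO and 0.00883 ± 0.0153 FPKM in Nex_Ctrl (SD, n = 3 each; difference 1.41, limma adjusted p = 6.84e-05). Tcf15 and Shox2 also rose (limma adjusted p = 0.00904 and 0.00329), and Dlx4 fell (-0.46, limma adjusted p = 0.0104).

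Counts among partners and regulators of the Hox genes stand against the background of 4.28% called higher and 2.46% called lower. Of 8 tested Hox cofactors 1 rose and 1 fell. Meis1 rose to 0.845 ± 0.0785 FPKM in Nex_cKO, against 0.487 ± 0.0630 FPKM in Nex_Ctrl (SD, n = 3 each; difference 0.31, limma adjusted p = 0.0429). Meis2, of the same family, fell to 7.50 ± 0.310 FPKM in Nex_cKO, against 13.7 ± 0.746 FPKM in Nex_Ctrl (SD, n = 3 each; difference -0.79, limma adjusted p = 0.00117). Of 17 tested genes of retinoic acid and posterior patterning signals, 0 rose and 1 fell, Aldh1a3, a retinoic acid synthesis enzyme (0.0977 FPKM in Nex_cKO against 0.485 FPKM in Nex_Ctrl, limma adjusted p = 0.0213). The caudal factors Cdx1, Cdx2 and Cdx4, which act upstream of Hox genes, were listed at 0 in both tables. Of 29 tested Polycomb group genes 0 rose and 0 fell, with summed levels of 349 to 351 FPKM in Nex_cKO and 351 to 364 FPKM in Nex_Ctrl. Bmi1 and Epop were not tested in the Nex model. Cbx6 averaged 0.226 FPKM in Nex_cKO and 0.236 FPKM in Nex_Ctrl, against 56.3 FPKM in Camk2a_cKO and 57.8 FPKM in Camk2a_Ctrl, so its Nex level is uncertain. In the Camk2a model none of the genes in these lists was called.

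Markers of other cells that transcribe such factors were summed per library. Of 9 tested markers of meningeal and perivascular fibroblasts, cells that use Foxc1, none was called, and their sum was 22.1 to 59.8 FPKM in Nex_cKO and 40.5 to 58.4 FPKM in Nex_Ctrl, with Dpep1 at 0. Of 10 pericyte and smooth muscle markers none was called either (49.7 to 60.6 FPKM in Nex_cKO, 57.1 to 67.6 FPKM in Nex_Ctrl). Egfl7 was the only 1 of 10 endothelial markers called, and it fell (limma adjusted p = 0.0185). Endothelial markers summed to 88.7 to 100.6 FPKM in Nex_cKO and 112.5 to 139.9 FPKM in Nex_Ctrl, groups that did not overlap. Of 7 tested choroid plexus and ependyma markers, Kl rose and none fell, and their sum was 2.99 to 5.001 FPKM in Nex_cKO and 1.505 to 1.57 FPKM in Nex_Ctrl, groups that did not overlap, with Otx2 and Tmem212 at 0. Of 13 oligodendrocyte and precursor markers 1 rose (Cspg4) and 1 fell (Sox10), with sums of 1114 to 1344 FPKM in Nex_cKO and 1440 to 1553 FPKM in Nex_Ctrl. Excitatory neuron markers, which define the tissue, summed to 2554 to 2887 FPKM in Nex_cKO and 3196 to 3443 FPKM in Nex_Ctrl, with 1 higher and 3 lower of 12. Neurod2 rose (limma adjusted p = 0.046), and Tbr1, Neurod6 and Rorb fell (limma adjusted p = 0.00421, 0.0187 and 0.0219). The part of these cell type differences in the members' values was not tested.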

How the data were processed

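Libraries were prepared from total RNA (RNAiso Plus) of dissected somatosensory cortex with an NEBNext Ultra II kit, per the labels' protocols. The authors deposited FPKM values in 2 tables, one per model. For software, cutadapt, STAR, Cufflinks 2.2.1 and DESeq2 are listed in the submitters' processing notes without roles, with builds mm10 and GRCm38. Positions and gene lengths are those the authors deposited in the 3-month table. Members and gene lists were chosen with earlier results of these data known.

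Of rows sharing a name, that with the highest mean was used (1864 rows of the 2.5-month and 105 of the 3-month table were dropped), and 4463 unnamed rows were not tested. All rows above 0 in at least 1 library were fitted per table as log2(FPKM + 1) with limma 3.58.1 in R 4.3.3 (eBayes with intensity trend, two-sided, Benjamini-Hochberg over all rows, threshold 0.05). The added 1 understates changes of low genes. FPKM times gene length gave whole reads for 100% of 3-month values within a tolerance of 0.1; limits for 0 reads use 3 reads and cover counting error only. Named members were those called, those crossing 0.1 FPKM, the 12 highest per model and those differing between models. The fit was tested on simulated data with changes placed only in genes above a set mean level. Recovery of changes in members near 0 was therefore not tested. Same-numbered libraries were not treated as pairs.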

Additional observations from a re-analysis of the deposited data

Results flagged for a closer look

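The change of Nkx2-5 differed between the models: the difference of log2(FPKM + 1) in the Nex model minus that in the Camk2a model was 0.91 (limma adjusted p = 0.00445 for the difference itself, over 15308 genes). Nkx2-5 was higher in 3 of 3 Nex_cKO libraries than in any Nex_Ctrl library, and had 1 read in 1 of 2 Camk2a_cKO libraries and 0 reads in Camk2a_Ctrl. Driver, age, table and, for 5 of 6 Nex libraries against all Camk2a libraries, the sex marked by Xist and Ddx3y differ together between the models and cannot be told apart.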

How the results depend on the processing

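The count of 6 members higher in Nex_cKO ranged from 2 to 6 when each library was left out, with 2 (Foxc1 and Nkx2-5) without Nex_Ctrl replicate 1, 2 or 3. It was 9 with a pseudocount of 0.1, 5 with quantile normalization, 4 with a mean of at least 0.1 FPKM and 0 with a filter of FPKM 1, which 9 members pass. Foxc1 and Nkx2-5 were called in every setting but that filter. The count of lower members was 0, with 2 under a pseudocount of 0.1 (Msx2 and Six2), 2 under quantile normalization (Irx1 and Six2) and 0 to 1 with a library left out. No member was called in the Camk2a model under any setting. The number differing between models was 1, with 2 under a pseudocount of 0.1, 0 with a mean of at least 0.1 FPKM, 0 with a filter of FPKM 1 and 1 to 3 with a library left out. The causes were not tested.

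Members reaching the detection bound only in Nex_cKO numbered 13 at a bound of 0.05 and 4 at 0.3, and 7 to 9 with a library left out; those reaching it only in Nex_Ctrl numbered 9 at 0.05 and 2 at 0.3, and 4 to 7 with a library left out. In Camk2a_cKO the first number was 0 at 0.3, and 3 to 6 with a library left out. The second was 2 at 0.05, 2 at 0.3, and 1 to 2 with a library left out.

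Same-numbered libraries did not deviate together (correlations of -0.0946 to 0.0187 among Nex libraries and 0.0628 among Camk2a libraries), so the numbers do not pair them. With a replicate block, 4 members were higher (Foxc1, Hoxc4, Nkx2-5 and Pax1) and 0 lower in the Nex model, and 0 were called in the Camk2a model.

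Signs of members that did not pass the test changed as follows. With the median ratio, Gata2 in the Nex model was 0.013. With rows of one name summed, Vax1 was 0.43. With quantile normalization, Tbx4, Gata2 and Tbx2 in the Camk2a model were -0.017, -0.045 and -0.023. With a library left out, the Nex model gave -0.15 to 0.0054 for Irx3, -0.38 to 0.068 for Barx2, -0.19 to 0.060 for the Foxc1 and Foxf2 locus and -0.0027 to 0.27 for the Tbx15 and Wars2 locus. It gave -0.14 to 0.13 for Gata2, -0.15 to 0.091 for Foxd1 and -0.29 to 0.028 for Six5. The Camk2a model gave -0.060 to 0.16 for Foxf1, -0.063 to 0.35 for Nkx2-9, -0.12 to 0.14 for Tbx4 and -0.23 to 0.35 for Vax1. It gave -0.042 to 0.070 for Gata2, -0.25 to 0.44 for Foxc2, -0.027 to 0.33 for Msx1, -0.17 to 0.13 for Nkx2-2 and -0.084 to 0.25 for Foxd1.

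Depth is unknown for the Nex libraries, so no detection limit can be given for values listed at 0 there. Levels of most members are a few reads or none in the Camk2a libraries, where members together had 1280 and 1365 reads in Camk2a_cKO and 1042 and 1323 reads in Camk2a_Ctrl. Loci joined in the 2.5-month table leave the division of reads between Foxc1 and Foxf2 uncertain.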
